A study of Mus musculus with 7 samples.

Results

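The forkhead transcription factor genes of the mouse were examined for H3K4me1 in single zygotes, the fertilised eggs before the first division. Members were the RefSeq protein-coding genes whose symbols run from Foxa to Foxs with a number, and 44 of 21523 protein-coding genes on chromosomes 1 to 19 and X met this rule, 3 of them on X. H3K4me1 was mapped by CUT&Tag, in which an antibody directs the Tn5 transposase to marked chromatin, so that each sequenced fragment marks 1 cut stretch of DNA. By the series' design text, ovulation was induced with 2 hormones at 5 IU each, serum gonadotropin of pregnant mares first and human chorionic gonadotropin after 46 to 48 h. Collection is given as 23 past the latter injection, without a unit. Cumulus cells and zona pellucida had been removed, and the label for treatment says none. The labels name B6D2F1/J mothers and C57BL6/J fathers for the H3K27me3 samples and their transcriptomes, and give no strain or age for the H3K4me1 samples. The 2 H3K4me1 batches, each from 1 mouse, share 1 deposited table, whose library names match neither batch label. All its libraries thus count as 1 sample here, and conditions could not be compared by a test.

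The pool held 1404305 fragments from 14 zygote libraries of 5000 or more fragments, ranging from 7106 to 197312 with a median of 96240. Libraries are named by the 2 numbers in their deposited names, as in 5-2; 3 begin with 4 and 11 with 5. The level of a gene is the number of fragments per bp in the gene with 2.5 kb on each side, its window, divided by the autosomal average, 5.62 fragments in 10 kb. Each level is followed by its exact 95% Poisson interval, which covers counting error only. A gene is called above or below 1 where this interval excludes 1. Chromosome X had a level of 0.554 in the pool, from 0.214 to 0.762 between libraries, so that its 3 members are also given relative to X. No background control was used here.

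Forkhead factors bind DNA through a winged-helix domain, and several, the Foxa factors first among them, can bind sites on nucleosomes and open chromatin for other factors. The family specifies endoderm, vessels, brain, inner ear, cilia and immune cells, while Foxo3 holds ovarian follicles dormant and Foxl2 maintains granulosa cells. H3K4me1 is a mark of enhancers, including those not yet in use, and of the flanks of active promoters.

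All 44 members held at least 1 fragment. Their median level was 1.20, against 1.19 over all protein-coding genes and 1.16 for protein-coding genes of the members' lengths, taken within 10 groups of gene length. In all, 15 members were above 1, where 28.6% of all protein-coding genes were. That makes 34.1% of the members, against 24% in their length groups. Only 2 members, Foxp2 and Foxr2, were below 1, against 7.81% of all genes. Without library 5-7 the count above 1 was 8, and over all 14 such omissions it ranged from 8 to 15. The members thus lay close to the background as a group, and ranged from 0.252 at Foxd4 to 2.82 at Foxs1.

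**Figure D1:**
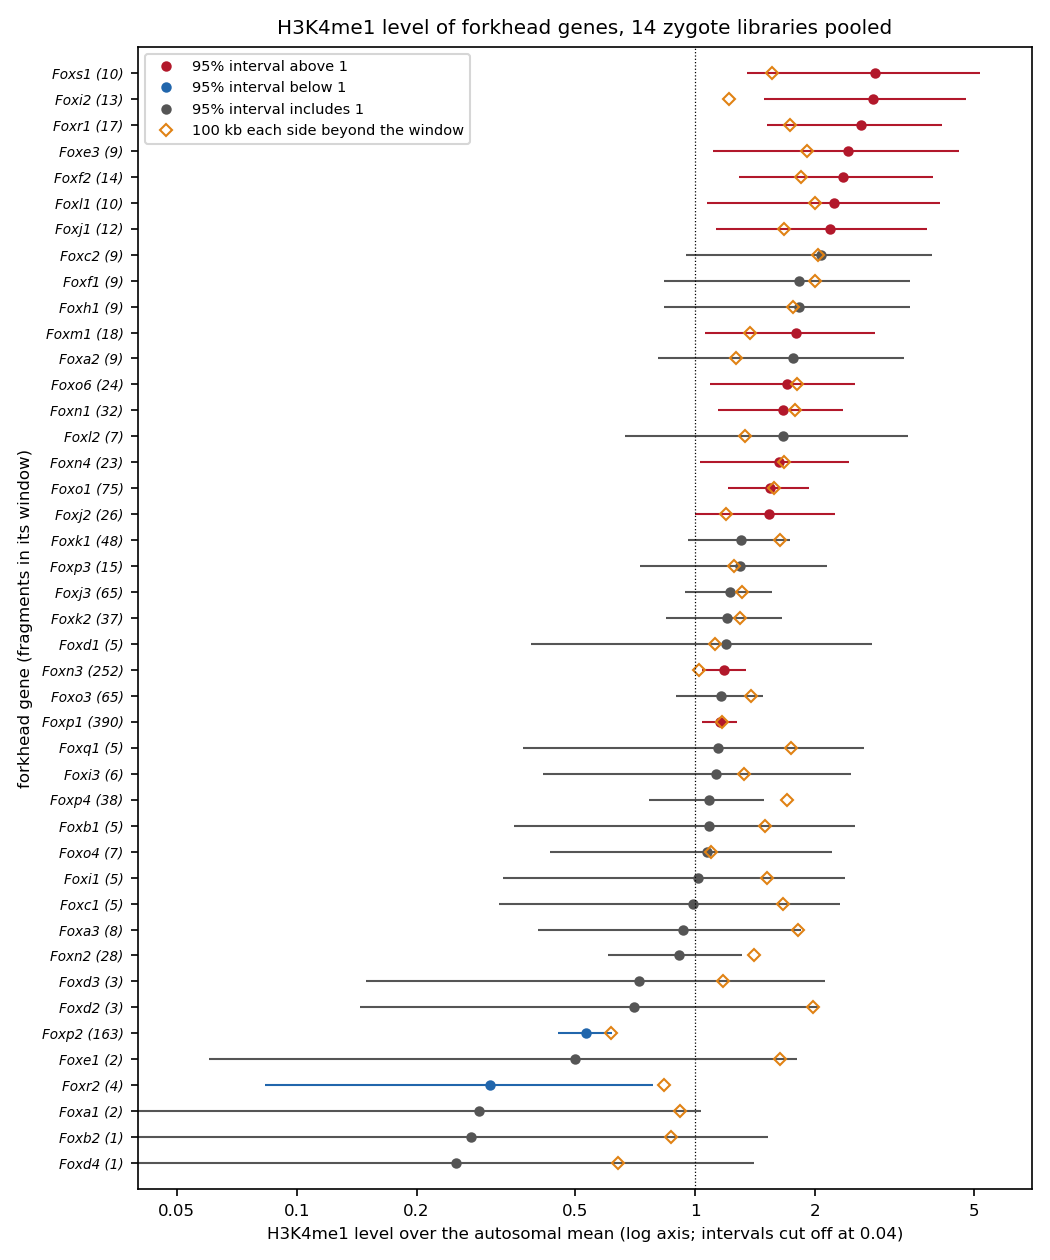
H3K4me1 level of the forkhead genes (1 member is not plotted) over the autosomal mean (log axis), with its exact 95% Poisson interval, in order of level; orange diamonds give the level of the 100 kb on each side beyond the window, and numbers in brackets are fragments. The 15 red genes lie above 1 and the 2 blue genes below it; for most genes the diamond lies within the gene's own interval.

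Gene length set what could be seen. The 26 members under 10 kb, most of them compact genes of few exons, had 3.55 to 6.97 fragments expected at the mean, with a median of 4.63. Foxc2, for example, would need 10 fragments, a level of 2.30, to be above 1, and 0 fragments to be below it. Of these 26 members, 7 were above 1 and 0 below, beside 16.3% and 3.28% of all genes under 10 kb. The 18 members of 10 kb or longer had a median of 30.8 fragments expected, and 8 were above 1 and 2 below, beside 35.3% and 10.3% of all genes of that size. A low level at a short member is therefore weakly bounded.

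The surroundings of 32 of 44 members held more H3K4me1 fragments for their length than the median over all genes. Over the 100 kb on each side beyond the window the median level was 1.45, against 1.20 around all protein-coding genes, and 38 of 44 members (86.4%) had surroundings above the autosomal mean, against 65.9% of all genes. Summed over genes, the level was 1.43 around the members and 1.21 around all genes. Some members share surroundings, and with every base counted once, 39 stretches and 6259 fragments gave 1.38 (1.35 to 1.42). The median over these stretches was 1.37. In the single libraries this level ran from 1.19 to 1.57 with a median of 1.36. All 14 libraries lay above 1, 13 of them with their interval. The level around all genes, summed over genes, ran from 1.12 to 1.27, and 13 of 14 libraries had a higher value around the members, 8 of them with their interval above it. Leaving out 1 library moved the median over members between 1.40 and 1.504. It was 1.60 in the libraries named 4, against 1.15 around all genes there, and 1.42 in those named 5, against 1.19. No test of this difference was made, since the pool is 1 sample.

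These rich surroundings were not gene-dense. A median of 9 other protein-coding genes lay within 500 kb of a member, against 15 for all protein-coding genes. Across all genes the level of the surroundings went up with gene number, from a median of 0.943 in the sparsest of 5 equal groups to 1.41 in the densest. The 15 members in the sparsest group had surroundings at 1.22, and the 13 in the next had 1.64, against 1.11 for all its genes. Members share stretches here: the 15 lie in 13 stretches with a median of 1.17, and the 13 in 10 stretches with a median of 1.39. The 5 members of the third group had 1.33 against 1.29, the 6 of the fourth 1.43 against 1.38, and the 5 of the densest 1.76 against 1.41. The members' median was thus the higher in each of the 5 groups, by little in the third and the fourth.

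The higher level reached far. With each base of a step counted once, and the windows of the same set left out, the level beyond the 26 short members was 1.63 (1.49 to 1.79) in the first 10 kb, 1.46 (1.32 to 1.60) at 10 to 20 kb, 1.38 (1.32 to 1.45) at 50 to 100 kb and 1.34 (1.31 to 1.38) at 100 to 250 kb. Their own windows had 1.44 (1.24 to 1.67). Around all genes under 10 kb, counted likewise, the level stayed between 1.11 and 1.15 and was 1.24 in the windows. Summed over genes, with shared bases repeated, it stayed between 1.16 and 1.18 there. The 18 long members had 1.04 (0.987 to 1.10) in the windows and 1.48 (1.31 to 1.66) in the first 10 kb beyond, where all genes of that size had 1.11. Leaving out the windows of the same set takes out more of the sequence around all genes than around the members. Summed over genes, with no window left out, all genes of that size had 1.22 in the first 10 kb. At 100 to 250 kb they had 1.22 as well, against 1.27 for the long members. Of the 1311 fragments in the long windows, Foxp1 gave 390, Foxn3 252 and Foxp2 163, so that these 3 genes weigh most in that sum.

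**Figure D2:**
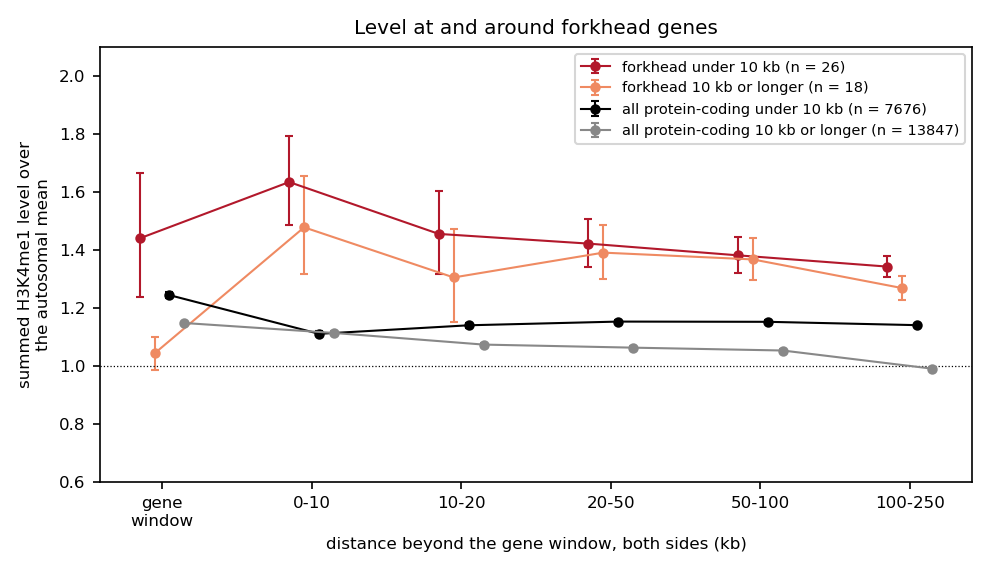
H3K4me1 level over the autosomal mean, each base counted once (linear axis from 0.6, exact 95% intervals), in the gene windows and in steps of distance beyond them, for short and long forkhead genes and for all protein-coding genes of the same sizes. Both forkhead lines stay above the lines of all genes from the first 10 kb to 250 kb beyond the window. The windows of each set are left out of its steps, which takes out more of the sequence around all genes.

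Set against its own surroundings, a member was seldom called apart. Summed, the ratio of window to surroundings was 0.951 (0.903 to 1.00) over the 44 members, with 1 just inside the interval, 0.987 (0.848 to 1.14) over the short and 0.946 (0.895 to 0.999) over the long. These sums repeat shared surroundings. The intervals of summed ratios, here and below, cover counting error of the windows only, not that of the surroundings. Under some settings given below, the interval over the 44 members excluded 1. The median ratio was 0.936, against 0.986 in the members' length groups, and 16 of 44 members (36.4%) had a ratio above 1, against 51.7% of all genes. Over the short members the median was 0.948 against 0.953 in their length groups, so that the lower ratio was one of the long members, at 0.936 against 1.03. Its exact conditional 95% interval lay above 1 for Foxi2 alone, where 10.4% of all genes were called and 5.47% of those under 10 kb. It lay below 1 for Foxr2, Foxn2 and Foxp4, where 6.04% of all genes were called and 8.05% of those of 10 kb or longer. No short member lay below its surroundings, a call made for 2.42% of all genes under 10 kb. These counts are too small to set the members apart from the background. Leaving out 1 library ended the call of Foxi2 for 5-6 or 5-9 (lowest ratio 2.02) and that of Foxp4 for 5-4 (highest 0.711). It ended the call of Foxn2 for 4-2, 4-5, 5-1, 5-5 or 5-7 (highest 0.719), and that of Foxr2 for 4-4, 4-5, 5-1, 5-4, 5-5, 5-7, 5-8 or 5-10 (highest 0.419). Across the 41 autosomal members, level and surroundings went together with a Spearman's rho of 0.497 and a Pearson's r of 0.550, beside 0.618 and 0.582 over 20560 autosomal genes. These are descriptions, since gene and surroundings share libraries and depth.

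The start sites of 28 members were found in the RefSeq promoter table for GRCm38.p6, which covers 250 bases before to 50 after the start, and the other 16 were not matched. Forkhead promoters were rich in CpG, with a median of 22 CpG per promoter against 14 over 17274 protein-coding genes, and 15 of 28 (53.6%) had 20 or more, against 36.5%. The 5 promoters below are picked examples: the 3 members of highest level with an entry (Foxi2, Foxr1, Foxe3), Foxd2 as the low neighbour of Foxe3, and Foxa1 as the lowest member with 20 or more CpG. They do not stand for a link of level with CpG. Foxd4, Foxb2 and Foxr2, at levels of 0.252, 0.273 and 0.306, had 12, 10 and 3 CpG, and Foxf2, at 2.35, had 27. Each is written 5′ to 3′ along the gene, with CpG in capitals. They lie at chr7:135410117-135410416 (plus strand), chr9:44440819-44441118 (minus), chr4:114926018-114926317 (minus), chr4:114908849-114909148 (minus) and chr12:57546062-57546361 (minus) in this order.
Foxi2: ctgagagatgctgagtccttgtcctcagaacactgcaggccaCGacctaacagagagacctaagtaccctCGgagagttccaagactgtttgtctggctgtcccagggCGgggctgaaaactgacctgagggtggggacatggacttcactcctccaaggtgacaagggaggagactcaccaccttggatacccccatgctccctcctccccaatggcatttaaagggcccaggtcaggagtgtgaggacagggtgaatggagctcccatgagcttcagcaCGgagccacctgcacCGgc
Foxr1: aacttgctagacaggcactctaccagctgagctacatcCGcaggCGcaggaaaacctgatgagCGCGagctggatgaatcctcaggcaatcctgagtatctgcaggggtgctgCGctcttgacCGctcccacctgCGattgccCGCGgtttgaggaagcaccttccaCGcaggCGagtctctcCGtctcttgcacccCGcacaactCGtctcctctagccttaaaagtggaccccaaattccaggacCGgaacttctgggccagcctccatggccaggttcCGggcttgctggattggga
Foxe3: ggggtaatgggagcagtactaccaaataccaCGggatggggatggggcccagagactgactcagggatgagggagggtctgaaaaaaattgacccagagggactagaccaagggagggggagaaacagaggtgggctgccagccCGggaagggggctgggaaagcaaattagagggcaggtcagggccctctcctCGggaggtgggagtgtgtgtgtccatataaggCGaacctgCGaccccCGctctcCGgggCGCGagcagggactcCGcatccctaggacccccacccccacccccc
Foxd2: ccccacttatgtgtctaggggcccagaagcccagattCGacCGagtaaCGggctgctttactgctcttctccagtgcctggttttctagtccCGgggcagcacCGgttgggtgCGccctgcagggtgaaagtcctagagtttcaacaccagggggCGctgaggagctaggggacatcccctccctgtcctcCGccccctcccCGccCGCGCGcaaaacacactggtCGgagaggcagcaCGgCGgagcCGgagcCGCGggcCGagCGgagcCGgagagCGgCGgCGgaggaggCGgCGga
Foxa1: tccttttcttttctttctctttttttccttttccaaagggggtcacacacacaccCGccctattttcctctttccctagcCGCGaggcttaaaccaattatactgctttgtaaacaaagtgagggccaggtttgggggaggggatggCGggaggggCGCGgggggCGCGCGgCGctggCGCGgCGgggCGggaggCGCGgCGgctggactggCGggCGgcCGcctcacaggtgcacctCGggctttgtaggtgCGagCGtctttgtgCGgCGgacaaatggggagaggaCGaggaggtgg
The promoter of Foxi2 has 5 CpG and 3 fragments over it, and that of Foxe3 has 10 CpG and 2 fragments. The promoters of Foxr1, Foxd2 and Foxa1, with 16, 26 and 26 CpG, have 0 fragments. In 300 bases so few fragments are expected that 0 is no sign of absence. The core forkhead binding motif TGTTTAC, searched on both strands, occurred in 1 of the 28 promoters, that of Foxa1, and in 2.96% of all promoters.

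Across all autosomal protein-coding genes the level at the start depended on CpG. Within 500 bp of the start it was 1.14 times (1.10 to 1.17) the level at 1 to 5 kb where the promoter had under 10 CpG, 0.907 times (0.869 to 0.947) with 10 to 19 CpG and 0.774 times (0.747 to 0.801) with 20 or more. The 26 autosomal members with a start had 1.92 times (0.644 to 4.79) over 4 genes, 0.820 times (0.213 to 2.27) over 7 and 1.07 times (0.471 to 2.16) over 15. With 19 fragments within 500 bp of all 26 starts, a difference of the members from all genes, or between CpG groups of members, was not detectable at this depth.

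**Figure D3:**
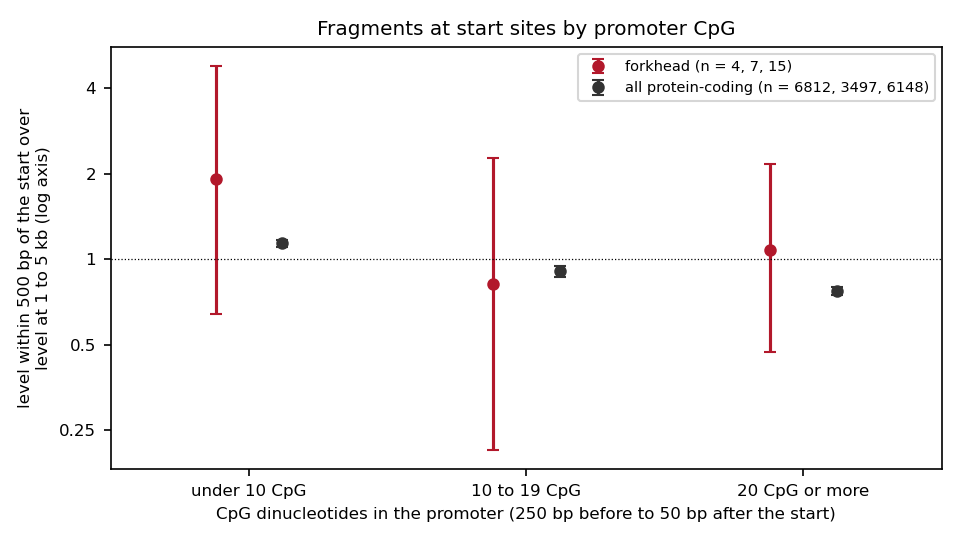
Level within 500 bp of the start over the level at 1 to 5 kb on both sides (log axis, exact conditional 95% intervals) by the number of CpG in the promoter, for forkhead genes and all autosomal protein-coding genes. The ratio goes down with CpG over all genes, from 1.14 to 0.774, and the wide forkhead intervals hold the values of all genes.

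The mesodermal and vascular members had the highest median of the larger role groups, 2.07 over 7 genes, with 3 above 1, where 16.3% of all genes under 10 kb were. Their surroundings were as high, with a median of 1.84, and the summed ratio to them was 1.03 (0.791 to 1.32). Foxs1, expressed in perivascular cells and sensory neurons, had 10 fragments from 8 libraries, with a lowest, median and highest library of 0, 1 and 2, and a level of 2.82 (1.35 to 5.18). It was above 1 whichever library was left out, and at the 97.6th percentile of genes of its length, whose median level was 0.604. Its surroundings were at 1.56, and the ratio to them was 1.81 (0.853 to 3.41), which includes 1. The vascular and gut mesenchyme factor Foxf2 had 14 fragments from 5 libraries, 5 of them from library 5-7, and a level of 2.35 (1.29 to 3.95). Without library 5-7 it was 1.70 (0.778 to 3.23), and without 5-2 or 5-10 it was not above 1 either. Foxl1, of the intestinal mesenchyme, had 10 fragments, at most 2 per library, and a level of 2.24 (1.07 to 4.11), a call ended by leaving out 4-2, 4-5, 5-2, 5-3, 5-5, 5-7 or 5-8 (lowest 1.89).

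Most mesodermal members lie in clusters, where the level extended between the genes. On chromosome 8, Foxf1, Foxc2 and Foxl1 stand within 51.3 kb with 55 fragments of 12 libraries and a level of 1.91 (1.44 to 2.48). The sequence between their windows had 1.79, and the windows were 1.14 times as high (0.646 to 2.00), so that genes and gaps did not differ beyond counting error. Foxf1, needed for lung and gut mesenchyme, had 1.83 (0.835 to 3.47), and Foxc2, a factor of lymphatic vessels, had 2.07 (0.948 to 3.93). On chromosome 13, Foxq1 and Foxf2 span 78.2 kb with a level of 1.43 (1.10 to 1.83). Foxq1 itself, known for a satin coat when mutated, had 1.14 (0.370 to 2.66) from 5 fragments. Foxc1, of eye and vessel development on the same chromosome, had 0.990 (0.321 to 2.31) in surroundings of 1.66.

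Neural and neural crest members were lowest, with a median of 0.701 over 9 genes and 6 of them at a level under 1. A level over 1 was thus found for 33.3% of them, against 54.3% of all genes under 10 kb. Summed over the group the level was 0.823 (0.559 to 1.17) from 31 fragments, and 0.655 times that of the surroundings (0.445 to 0.930). Over all genes under 10 kb this ratio was 1.04. The sum over the group repeats the surroundings that Foxd2 and Foxe3 share. Foxd4 and Foxb2 had 1 fragment each, with levels of 0.252 (0.00637 to 1.40) and 0.273 (0.00691 to 1.52). The thyroid factor Foxe1 had 2 fragments and a level of 0.499 (0.0604 to 1.80), in surroundings of 1.63. Foxd3, of the neural crest and the early embryo, had 0.724 (0.149 to 2.12). Foxd1 and Foxb1 had 5 fragments each and levels of 1.19 and 1.08.

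Foxd2 and the lens gene Foxe3 are neighbours on chromosome 4, within 24.8 kb at a joint level of 1.58 (0.990 to 2.39). Foxe3 had 9 fragments from 5 libraries, at most 3 each, and a level of 2.42 (1.11 to 4.59). Leaving out 5-1, 5-4, 5-5, 5-8 or 5-10 ended this call, and the lowest value was 1.74 without 5-5. Foxd2 had 3 fragments and a level of 0.701 (0.144 to 2.05). The intervals of the 2 genes overlap. The surroundings of Foxe3 were at 1.90 and those of Foxd2 at 1.97, with 3 enriched bins of 10 kb within 100 kb (at least 3 times the mean, 20 fragments and 5 libraries). In all, 11 of 44 members (25%) had such a bin within 100 kb, against 17% of all genes.

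Members of ionocytes and cilia had a median of 1.65 over 4 genes, all at a level over 1. The intervals of 2 lay above 1, where those of 16.3% of all genes under 10 kb did. Foxi2, expressed in craniofacial ectoderm, had 13 fragments from 8 libraries, with a lowest, median and highest library of 0, 1 and 3, and a level of 2.80 (1.49 to 4.79). This was 2.30 times its surroundings (1.19 to 4.06). All 13 fragments came from libraries named 5, at 3.41 (1.82 to 5.83), and the 0 fragments in those named 4 allow a level of up to 4.46, so that the intervals overlap. Foxj1, the master factor of motile cilia, had 12 fragments from 8 libraries and a level of 2.18 (1.13 to 3.81), a call ended by leaving out 4-5, 5-1 or 5-9 (lowest 1.87). Its window overlaps Rnf157. Foxi1, of kidney and inner ear ionocytes, had 1.02 (0.330 to 2.37), and Foxi3, of tooth and hair placodes, had 1.13 (0.414 to 2.46).

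Among the endoderm and Nodal members, 0 of 4 were above 1, and the intervals of all 4 overlap. All but Foxa3 are under 10 kb, where 16.3% of all genes were above 1, so 0 of 4 is too few to tell from the background. Foxa2, of node, notochord and endoderm, had 9 fragments from 4 libraries and a level of 1.76 (0.805 to 3.34). Library 5-4 gave 5 of the 9, and without it the level was 0.909 (0.248 to 2.33). Foxa1, whose promoter is printed above, had 2 fragments, both from library 5-2, and 0.287 (0.0347 to 1.04). Without library 5-2 it had 0 fragments, an interval from 0 to 0.573, and was below 1. Foxa3, of the liver, had 0.933 (0.403 to 1.84) in surroundings of 1.81. Foxh1, the maternal partner of Smad proteins in Nodal signalling, had 9 fragments from 5 libraries, 4 of them from 5-2, and 1.82 (0.833 to 3.46), or 1.10 (0.356 to 2.56) without that library. Its window overlaps Kifc2 and Ppp1r16a.

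Foxr1, Foxr2 and Foxl2 are the members tied to germ line and gonad. Foxr1, found in oocytes and early embryos, had 17 fragments from 7 libraries with a lowest, median and highest library of 0, 0.5 and 6. No short member had more fragments. Its level was 2.60 (1.51 to 4.16), 1.51 times the surroundings (0.860 to 2.48). Without library 5-2, which gave 6, it was 1.82 (0.909 to 3.26) and no longer above 1. Foxl2 had 7 fragments from 6 libraries and 1.66 (0.666 to 3.41). Foxr2, on X, had 4 fragments and 0.306 (0.0833 to 0.783) on the autosomal scale. Relative to X it was 0.552 (0.150 to 1.41), which includes 1.

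Foxo factors, which insulin and Akt signalling exclude from the nucleus, had a median of 1.35 over 4 genes. Of these, 2 were above 1, where 28.6% of all genes were. Foxo1 had 75 fragments from 12 libraries, from 0 to 11 with a median of 5.5, and a level of 1.54 (1.21 to 1.93). It was above 1 without any 1 library, and 0.977 times its surroundings (0.735 to 1.29), although only 1 other protein-coding gene lay within 500 kb. Foxo6, of the hippocampus, had 24 fragments and 1.70 (1.09 to 2.52), a call ended without 4-5, 5-6 or 5-7 (lowest 1.45). Foxo3 had 65 fragments and 1.16 (0.894 to 1.48). Library 5-4 gave 27 of them, 41.5% where it holds 13.9% of the autosomal fragments, and the other libraries 1 to 9 each, or 0 in 5-11. Up to 6 fragments of library 5-4 lay over the same base, the most at any member. Without it the level of Foxo3 was 0.787 (0.557 to 1.08) and 0.599 times the surroundings, a ratio whose interval then lay below 1. Foxo4, on X, had 1.07 (0.431 to 2.21), or 1.94 (0.779 to 3.99) relative to X.

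The Foxp genes, long genes whose products bind corepressors, spread widely. Foxp2, of brain and lung, spans 540629 bp and had 163 fragments from 13 libraries, from 0 to 23 with a median of 12.5. Its level of 0.532 (0.453 to 0.620) was below 1 without any 1 library and at the 3.66th percentile of its length group. It was 0.866 times its surroundings (0.650 to 1.16), which lay at 0.614. Of 56 bins of 10 kb along it, 9 were below 1 and 0 above. Foxp1, of similar length (597405 bp), had 390 fragments from all 14 libraries, from 2 to 58 with a median of 21.5, and 1.15 (1.04 to 1.27), a call lost without 5-6, 5-7 or 5-10 (lowest 1.10). The intervals of these 2 genes do not overlap. Foxp1 had 5 bins above 1 and 2 below. The shares of such bins over all genes are not given here, so these counts stand without a background. Foxp4 had 1.08 (0.766 to 1.48) and was 0.637 times its surroundings (0.437 to 0.906). Foxp3, the factor of regulatory T cells on X, had 1.30 (0.726 to 2.14), and 2.34 (1.31 to 3.87) relative to X. Its surroundings were at 1.25 on the autosomal scale, and the ratio to them was 1.03 (0.564 to 1.77). Its window overlaps Ccdc22.

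Widely expressed members, all of 10 kb or longer, had a median of 1.22 over 7 genes. Of these, 3 were above 1, where 35.3% of all genes of that size were. Foxn3, a checkpoint-associated repressor, had 252 fragments from 13 libraries, from 0 to 33 with a median of 17, and 1.18 (1.04 to 1.34), above 1 without any 1 library. It holds the only enriched 10 kb bin found along a long member, at chr12:99500001-99510000, with 25 fragments from 11 libraries and a level of 4.45 (2.88 to 6.57). Such a bin in the window was thus found for 5.56% of the long members, against 5.45% of all genes of 10 kb or longer. Among the 26 short members, one overlapped the windows of Foxb1 and Foxr1, or 7.69%, against 1.86% of all genes under 10 kb. A count of 2 is too small to set the short members apart from the background. Foxm1, the cell cycle factor, had 18 fragments from 8 libraries and 1.79 (1.06 to 2.83), a call ended without 4-5, 5-2, 5-3, 5-4 or 5-8. Foxj2 had 1.53 (1.00 to 2.25), a call at its limit that ended without 4-4, 5-2, 5-3, 5-4, 5-7 or 5-10 (lowest 1.33). The windows of Foxn3, Foxm1 and Foxj2 overlap other protein-coding genes: Gm51999 at Foxn3, Rhno1 and Tex52 at Foxm1, and C3ar1 at Foxj2. Such an overlap was found for 11 of 44 members in all, and the share over all genes is not given here. Foxj3, Foxk1 and Foxk2 had 1.22, 1.30 and 1.20, and Foxn2 had 0.909 (0.604 to 1.31), 0.646 times its surroundings. The thymus factor Foxn1, mutated in nude mice, had 32 fragments and 1.66 (1.14 to 2.35), a call ended without 5-4 or 5-7 (lowest 1.40). Foxn4, of the retina, had 23 fragments and 1.62 (1.03 to 2.43), a call ended without 5-2, 5-3, 5-5, 5-6, 5-7 or 5-8 (lowest 1.45).

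Between libraries, the short members were unevenly read. Summed over the 26 short members the level ran from 0 in the shallow library 5-11 to 2.74 (1.79 to 4.01) in 5-2, with a median of 1.33, and 12 of 14 libraries lay above 1, only 5-2 and 5-10 with their interval. In 5 of 14 libraries the level was below that of all genes under 10 kb. Library 5-2 gave 26 fragments at 11 members, among them 6 at Foxr1, 4 at Foxh1 and 3 at Foxf2. Without it the summed level of all short members was 1.33 (1.13 to 1.56), against 1.44 (1.24 to 1.67) with it. The level of all genes under 10 kb in 5-2 was 1.21, within the range of the other libraries. The long members ran from 0.317 in 5-11 to 1.33 in 5-9. The intervals of 4-2 (0.602) and 4-4 (0.757) lay below 1, and those of 5-7 (1.19) and 5-10 (1.20) above it. Foxn3 and Foxp1 were the only members whose intervals did not overlap between the 2 sets of libraries: Foxp1 had 0.795 (0.586 to 1.05) in those named 4 and 1.23 (1.10 to 1.37) in those named 5, and Foxn3 had 0.765 (0.512 to 1.10) and 1.28 (1.11 to 1.45). They are the 2 members with the most fragments, where intervals are narrowest. The share of all genes with intervals apart is not given here, so this count cannot be set against a background.

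**Figure D4:**
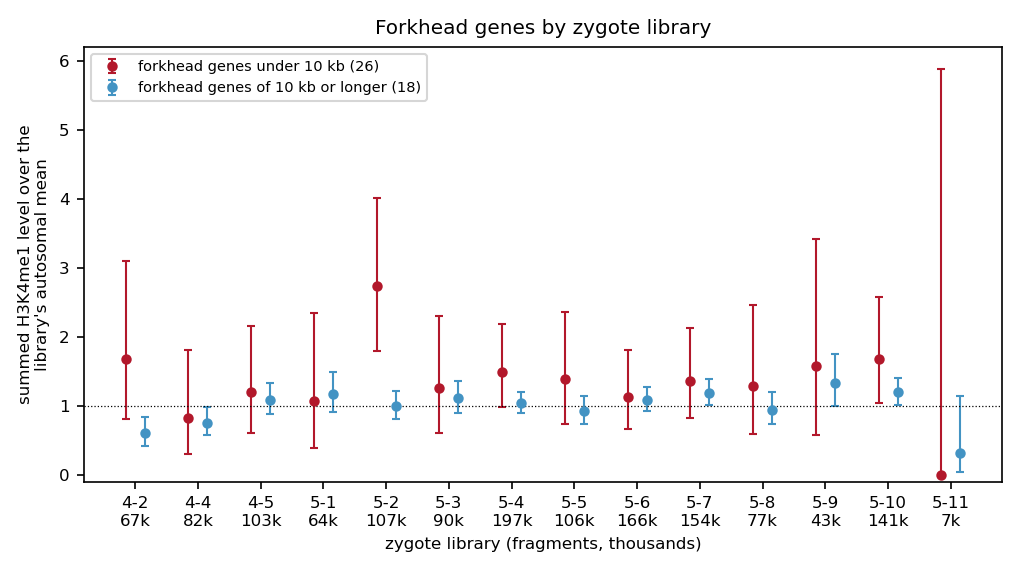
Summed H3K4me1 level of the 26 short and 18 long forkhead genes in each zygote library over that library's autosomal mean (exact 95% intervals), with the depth under each name. Library 5-2 is highest for the short genes at 2.74. For the long genes the intervals of 4-2 and 4-4 lie below 1, and those of 5-7 and 5-10 above it.

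**Figure D5:**
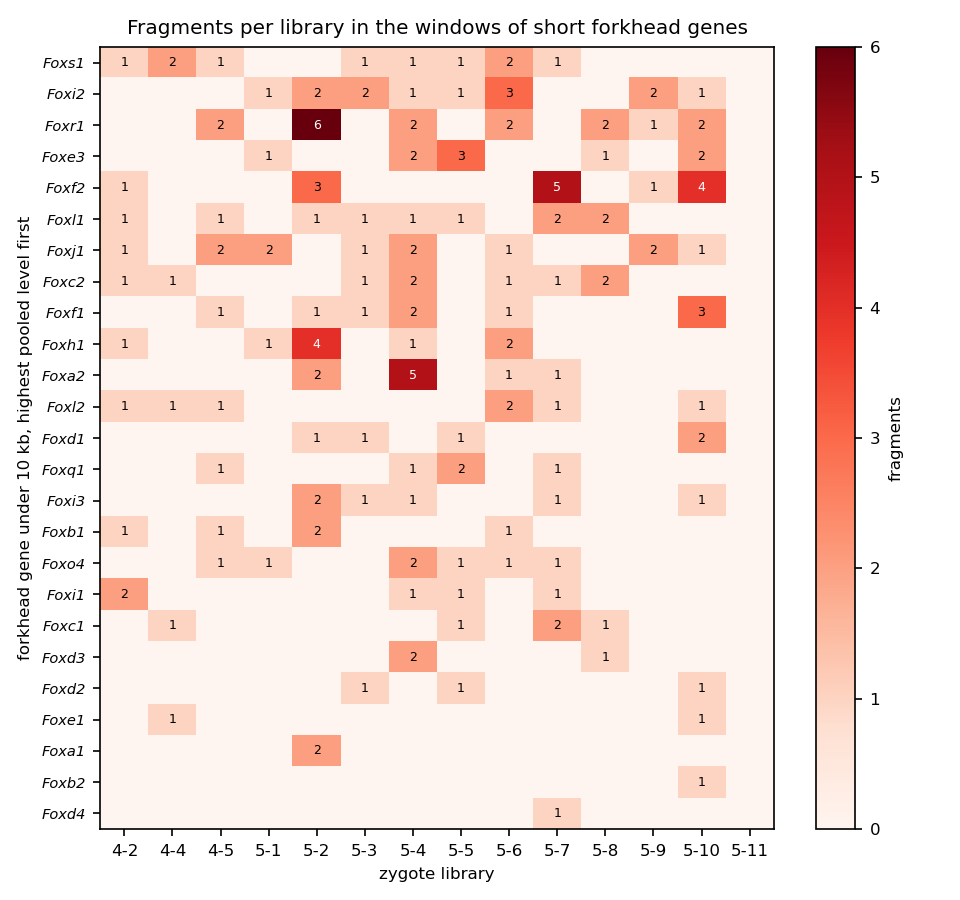
Fragments in the windows of forkhead genes under 10 kb (rows, highest pooled level first; 1 member is not plotted) in each zygote library (columns); empty cells hold 0. Most cells hold 0 to 2 fragments, and the highest is 6, at Foxr1 in library 5-2.

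Hox and Pax genes, 2 other families of developmental factors, gave different values. The 39 Hox genes had a median level of 0.959 with 2 above 1 and surroundings at 1.14, and the 9 Pax genes had 1.51 with 5 above 1 and surroundings at 1.23. Of all genes 28.6% were above 1, and 16.3% of those under 10 kb, where 33 of the 39 Hox genes fall. Counted per gene, neither had surroundings as high as the forkhead genes, at 1.45, and no test of these differences was made. These medians count a stretch again for each gene that shares it. Over separate stretches the forkhead median was 1.37, and no such value is given here for the Hox and Pax genes. The pathway partners are read against the same 28.6% above 1 and 7.81% below. Of 9 genes from Nodal to Foxh1, 2 were above 1 (Smad3 with 1.64 and the receptor gene Acvr1b with 1.64) and 1 below (Acvr2a with 0.680). Of 14 genes from insulin and PI3K to Foxo, 5 were above 1, led by Akt1 with 2.59 (1.84 to 3.56), and 1 was below. Of 4 genes that act with Foxp3, Ctla4 was above 1 with 2.11 (1.15 to 3.54).

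Fragment lengths at the members were close to those at other genes. The median was 311.5 bp at short members and 309 bp at long ones, against 321 bp over all protein-coding genes. Fragments of 120 bp or less made up 9.44% (5.60% to 14.7%) at short members and 5.93% at all genes under 10 kb. At 12 oocyte and zygote genes the median level was 2.19 with 7 above 1 and Ooep at 0 fragments, at 10 cumulus and granulosa genes it was 1.21 with 4 above 1, and at 8 spermatid genes it was 1.59 with 3 above 1, beside 28.6% of all genes. A mark at a gene does not show its transcript, so the cell type could not be checked from these values, and the part of other cells was not tested. In the table, 0.405% of fragments had both ends in common with a fragment of another library, and none of these lay in a member window.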

How the data were processed

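H3K4me1 was profiled by CUT&Tag in single mouse zygotes, and the H3K27me3 and transcriptome samples were not used here. The deposited table lists 1 fragment per line, and its last column is a count of 1 in all 1424363 lines; the build is mm10, per the submitters' processing notes. Of the aligner, removal of duplicates and any shift of cut sites the sources used here say nothing. Fragment midpoints were then counted per region in the 14 libraries of 5000 or more fragments; 2 libraries of 672 or fewer were left out. Gene positions and promoters are those of RefSeq on GRCm38.p6, with promoters and strand for 28 of 44 members. Of 21631 protein-coding entries, 108 were left out of all comparisons because their listed positions lie outside the stretch of the chromosome that holds fragments. Levels, exact 95% intervals and leave-outs were computed in Python 3.11.15 with SciPy 1.17.1. Levels and intervals, but not leave-outs, were checked on simulated fragments with Poisson counts at known levels. These simulated fragments hold no clumping within a library. The check thus covers the computation, and not how well such intervals describe the spread in these data. Replicates could not be separated, so no p-value is given. Values are printed for members called against 1 or against their surroundings, the 6 highest and 6 lowest, and clustered members; other members are given briefly. For 1 member and 1 pathway gene, counted in the sums, no values of their own are reported here. Members, lists and comparisons were chosen with earlier results of these data known. The CpG groups, gene density, distance steps, length split and single-library checks were added after the data were seen.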

Additional observations from a re-analysis of the deposited data

How the results depend on the processing

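Leaving out 1 library gave medians of the forkhead levels from 1.19 to 1.28, 8 to 15 members above 1, 2 to 3 below 1, a summed ratio to the surroundings from 0.934 to 0.972 (0.951 with all libraries), and from 0.934 to 1.02 (0.987) for members under 10 kb, a split added after the data were seen. The median was 1.32 with 5 kb on each side, 1.26 over the gene body, 1.11 with libraries weighted equally, 1.12 in libraries named 4 and 1.26 in those named 5. Members above 1 numbered 3 in libraries named 4 and 9 in those named 5, where 12.9% and 25.5% of all genes were above 1. Members below 1 numbered 1 in libraries named 4 and 1 with X-linked genes set against X. In this last setting 16 members were above 1, where 29.5% of all genes were. In libraries named 4 the ratio to the surroundings was 0.804 (0.701 to 0.918), and 0.795 (0.524 to 1.16) for short members. In those named 5 it was 0.981 (0.928 to 1.04), and 1.03 (0.874 to 1.21) for short members. Over all members the 2 intervals do not overlap. The intervals of these ratios cover counting error of the windows only. The shallower sets hold fewer fragments, which widens intervals and bears on the counts of calls. The cause of the difference between the 2 ratios, and other causes, were not tested. With 1 kb on each side 10 members were above 1 (27% of all genes), and over the gene body 11 (26.3%). Any overlap, libraries of 20000 or more fragments and leaving out bins above 10 times the mean gave medians from 1.20 to 1.24. They gave 14 or 15 members above 1 and 2 below, and 0 such bins lay in a member window. With surroundings of 50 kb the ratio over all members was 0.912 (0.866 to 0.959), which excluded 1. The interval also excluded 1 with 1 kb on each side, at 0.943 (0.894 to 0.994). It did so in some leave-outs of 1 library too, as at the lowest ratio, 0.934 (0.886 to 0.984). In the other leave-outs and settings, apart from libraries named 4, it held 1. For short members it held 1 throughout. The level around the members was 1.43 summed over genes and 1.38 with each base once, a choice made after seeing the data. Libraries weighted equally gave no counts of calls and no ratio, since the intervals need summed counts. No paired analysis was possible because the columns carry no batch number for the 2 H3K4me1 samples. Depth limits the short members most: Foxc2 needs a level of 2.30 to be called.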

Other observations

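The single library 5-2 had a summed level of 2.74 at the 26 short forkhead genes, the highest of the 14 libraries, and the highest level around the members as well, 1.57 (1.44 to 1.71). Its level around all genes was 1.17. At Foxo3 the fragments of library 5-4, 27 of 65, included up to 6 over the same base.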
